A study of Mus musculus with 2 samples.

Results

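Interferon-signature classical monocytes were 186 of the 14809 leukocytes kept from tumours of the mouse melanoma line B16F10-OVA, which carries ovalbumin as a model antigen. They were chosen by measured transcript counts, so their high level of the genes used for the choice is not a result. A cell was a member when it held at least 2 UMIs of Ly6c2, at least 1 of Ccr2 and at least 5 of Lyz2, and at least 5 UMIs of Ifit1, Ifit2 and Ifit3 together. A UMI, or unique molecular identifier, marks 1 captured RNA molecule. A member also held at most 2 UMIs of C1qa, C1qb and C1qc together, under 20 of Ccl24, under 0.5% of its UMIs from Hspa1a and Hspa1b, and fewer than 4 of the 6 hypoxia genes Nos2, Egln3, Ndrg1, Adm, Hilpda and Ero1l. Cells with any UMI of Ace, Treml4, Cd3e or Flt3 were left out.

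All mice bore subcutaneous B16F10-OVA grafts, and the groups differed in what was injected on days 10, 12, 14 and 16, either PBS, a saline buffer, or an agent called UDSP-Hep that the labels do not describe further. On day 19, 3 tumours of each group were taken, CD45+ leukocytes were sorted, and about 10000 cells per group were loaded for droplet sequencing on the 10x Genomics platform. Each group was therefore 1 library of pooled tumours, with no replicate, and no mouse strain, sex or age is given in the sources used here. The PBS library held 7379 barcodes and the UDSP-Hep library 7872, with medians of 7890 and 5641 UMIs. Of these barcodes, 25 occurred in both libraries, and 0 of them were members.

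Classical monocytes are Ly6c2-high cells that leave the blood through the chemokine receptor Ccr2 and enter inflamed tissue and tumours. Type I interferons bind the receptor Ifnar1 with Ifnar2, and signalling through Stat2 and Irf9 leads to binding at interferon-stimulated response elements (ISRE) in the promoters of antiviral genes. Interferon-gamma acts through Ifngr1 with Ifngr2 and leads to binding at gamma-activated sites (GAS). Ifit1, Ifit2 and Ifit3 encode antiviral proteins that bind RNA or its binding partners and are among the most strongly interferon-induced genes.

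RefSeq promoters of some of the genes described here hold the ISRE core, and others do not. It was searched as GAAA followed, after 2 bases of any kind, by a second GAAA, on both strands in the 250 bases before each gene's start (build GRCm38.p6), and 3.46% of the 27025 gene symbols with a promoter held it. The windows below, all with a match, were chosen because they belong to 2 genes of the rule, to the near-copy Ifit3b, and to the antiviral genes Rsad2 and Isg15 and the chemokine gene Cxcl10, which the rule did not use. Each is given 5′ to 3′ on the gene's strand, with the matches in capitals and 12 bases on either side.
Ifit1, chr19:34640773-34640825, plus strand: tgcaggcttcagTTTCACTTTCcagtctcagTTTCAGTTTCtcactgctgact
Ifit3, chr19:34583361-34583428, plus strand: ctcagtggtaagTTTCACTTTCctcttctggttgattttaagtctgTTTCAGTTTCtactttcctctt
Ifit3b, chr19:34607757-34607824, plus strand: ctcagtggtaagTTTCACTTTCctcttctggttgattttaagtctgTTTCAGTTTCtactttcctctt
Rsad2, chr12:26456551-26456584, minus strand: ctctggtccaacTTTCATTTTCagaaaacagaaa
Isg15, chr4:156200863-156200908, minus strand: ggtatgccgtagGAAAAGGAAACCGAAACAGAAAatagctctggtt
Cxcl10, chr5:92349081-92349114, minus strand: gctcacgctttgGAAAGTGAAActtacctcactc

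All 6 windows lie upstream of the annotated gene start. Ifit1 had 2 matches, the farther one starting 104 bases upstream, Rsad2 had 1 match starting 120 bases upstream, and Isg15 had 3 overlapping matches within 78 bases of its start. Ifit3 and Ifit3b held the same window letter for letter. The promoters of Ifit2, Cmpk2, Oasl1, Tnfsf10, Cxcl9, Ly6c2 and Ccr2 held no match to these letters.

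Members were fewer in the UDSP-Hep library by either denominator. They numbered 112 of 7134 kept PBS cells, or 1.57% (95% exact binomial interval 1.29 to 1.89%), and 74 of 7675 kept UDSP-Hep cells, or 0.964% (0.758 to 1.21%). The ratio of the shares, UDSP-Hep over PBS, was 0.614 (Katz log interval 0.459 to 0.822). Classical monocytes as a whole, meaning cells that met every condition with or without the Ifit one, were 9.71% and 7.84% of kept cells. Among these 693 and 602 classical monocytes, members were 16.2% (interval 13.5 to 19.1%) in PBS and 12.3% (9.78 to 15.2%) in UDSP-Hep, with a ratio of 0.761 (0.579 to 0.999) whose upper bound came close to equality. All intervals in the text are at 95% and cover counting error only, not the spread between mice.

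The conditions on Ccl24, heat shock and hypoxia genes removed more cells from the PBS library than from the other. The hypoxia condition alone kept out 32 PBS and 11 UDSP-Hep cells, the heat shock condition 20 and 0, and the Ccl24 condition 9 and 0. Without these 3 conditions members numbered 190 and 85, and the ratio of shares was 0.416 of kept cells and 0.724 of classical monocytes.

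**Figure D1:**
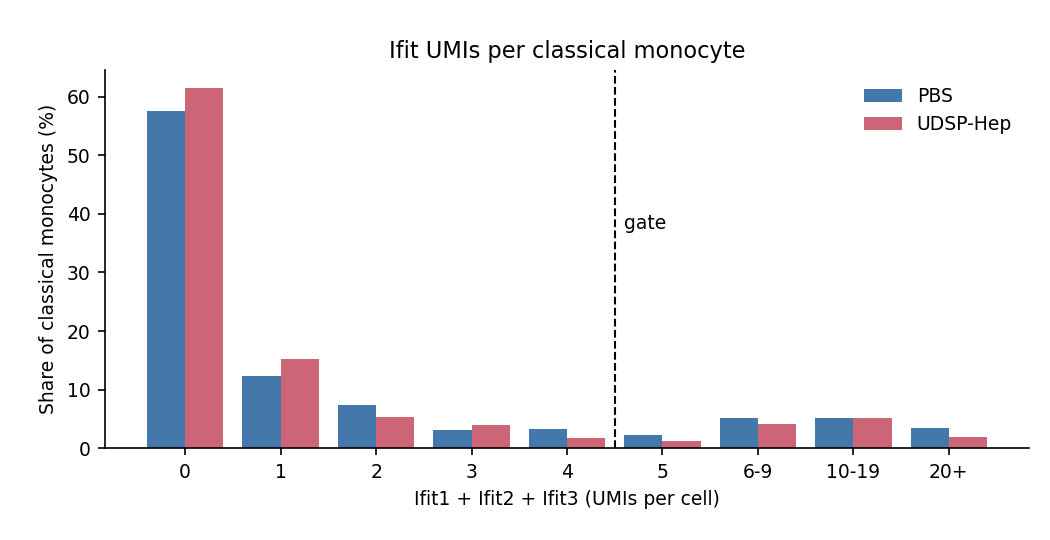
Share of classical monocytes (%) by the summed UMIs of Ifit1, Ifit2 and Ifit3 per cell, for the PBS library (693 cells, blue) and the UDSP-Hep library (602 cells, red). The dashed line is the threshold of 5 UMIs, and 57.6% and 61.5% of the cells held no such UMI.

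The Ifit counts formed a long tail rather than a separate group, as the plot of Ifit UMIs per cell shows. Just under the threshold, with 4 Ifit UMIs, lay 23 PBS and 10 UDSP-Hep cells, and just inside it, with 5, lay 16 and 7. Levels are given as CPM, the summed UMIs of a gene divided by all UMIs of the same cells and scaled to the same total in every population. The cells just outside had 314 and 426 CPM of Rsad2, and those just inside 462 and 181 CPM. Members held a median of 10.5 and 11 Ifit UMIs and 9063 and 9750.5 UMIs in all, against medians of 8313 and 8942.5 UMIs in the other 581 and 528 classical monocytes. A threshold on raw UMIs admits deeper cells more readily, and with 6 Ifit UMIs per 10000 in its place members numbered 104 and 71.

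Cells with at least 5 Ifit UMIs were not confined to classical monocytes. They made up 18.4% and 17.1% of cells gated as macrophages (at least 10 C1q UMIs), 7.77% and 5.83% of cells gated as nonclassical monocytes (at least 2 UMIs of Ace and Treml4 together), and 11.5% and 9.36% of cells with at least 2 Cd3e UMIs. In NK-gated cells the shares were 0.987% and 1.02%, and in neutrophil-gated cells 20.8% (of 24 cells) and 7.65%. The median depths of these gates ran from 2498 to 14308.5 UMIs. With cells thinned to 3500 UMIs, at least 5 Ifit UMIs were left in 5.20% and 4.43% of macrophages. The shares were 3.16% and 2.58% of nonclassical monocytes and 4.62% and 2.75% of Cd3e cells. Among classical monocytes, 50 of 112 (44.6%) and 32 of 74 (43.2%) members kept them, and 0 of 557 and 0 of 516 others. Members were chosen on Ifit UMIs, so their share alone cannot be set against those of the other gates. The thinning left out 7 and 8 macrophages, 19 and 99 nonclassical monocytes and 101 and 168 Cd3e cells as shallower. It also left out 24 and 12 of the other classical monocytes.

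The label was checked against markers that the rule did not use. Of 24 genes of a classical monocyte identity list, 22 passed the minimum of 50 summed UMIs. Their median log2 ratios to the remaining classical monocytes were -0.10 and -0.12. In both libraries 0 of them were 1.5-fold higher or lower, beside 3.65% and 6.2% of all tested genes. Those shares are small, and both populations met the same Ly6c2, Ccr2 and Lyz2 conditions, so the count says little about the label. Markers of T cells summed to 13.9 and 20.3 CPM (6 genes, 1 at 0 in each library), those of B cells to 0.928 and 1.27 CPM (4 genes, 3 at 0). Neutrophil markers (6 genes, 0 and 1 at 0) summed to 1836 and 552 CPM in members, of which 91.2% and 52.2% came from 1 cell. In the other classical monocytes they summed to 166 and 1067 CPM, of which 1.14% and 48.9% came from 1 cell. Markers of macrophages outside the rule (4 genes, 0 at 0) summed to 1358 and 1411 CPM in members and 1106 and 1796 CPM in the others, and Apoe, the lipid carrier gene, gave 947 and 1161 CPM of the members' sums. Those of nonclassical monocytes (5 genes, 0 at 0) summed to 412 and 839 CPM in members against 613 and 968 CPM. NK markers (5 genes, 0 at 0) summed to 219 and 272 CPM, of which 72.5% and 55.6% came from 1 cell, and to 185 and 375 CPM in the others. Plasmacytoid dendritic cell markers (4 genes, 2 and 1 at 0) summed to 182 and 199 CPM in members and 119 and 116 CPM in the others. The 1 of them that passed the minimum was higher in members, at log2 ratios of 0.61 and 0.77. Conventional dendritic cell markers (5 genes, 1 and 2 at 0) summed to 69.6 and 53.3 CPM in members and 57.9 and 57.1 CPM in the others. The part of other cell types in the results was not tested.

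The next comparison describes how members differed from the other classical monocytes of the same library. Since the Ifit condition separated these cells, it is a description of what was selected, with no test. A gene was counted when its CPM ratio was at least 1.5, or at most 1/1.5, in both libraries, among 7559 genes with at least 50 UMIs in each. By that rule 276 genes (3.65%) were higher and 469 (6.2%) were lower in members. The median gene had a log2 ratio of -0.19 in the PBS and -0.14 in the UDSP-Hep library. With median-of-ratios scaling, which raised every log2 ratio by 0.19 and 0.13, the counts were 385 higher and 250 lower.

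Most listed genes of the type I interferon response were on the higher side, where they made up 57 of the 276 genes. Of 62 listed genes found in the files, none of them a gene of the rule, 61 passed the minimum, and these 57 were higher in members, 0 lower and 4 neither, with median log2 ratios of 1.26 and 1.38. The 4 were Oas1a, Ifi27l2a, Ifitm3 and Trim25. Ifitm3, a membrane protein that hinders virus entry, was abundant everywhere, at 4156 and 3267 CPM in members and 3535 and 2504 CPM in the others.

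Among antiviral effectors, Rsad2 was at 1468 and 1133 CPM in members against 79.1 and 86.3 CPM in the other classical monocytes, 18.6 and 13.1 times higher. Ifit3b was at 69.6 and 59.6 CPM, 30.7 times the level of the others in either library, but its sequence is so close to Ifit3 that reads may be split between them. Ifit1bl1, a further Ifit family gene, was 16.3 and 22.7 times higher. Cmpk2, a mitochondrial nucleotide kinase next to Rsad2, was 9.74 and 10.3 times higher, and Oasl1, of the oligoadenylate synthetase family, 8.30 and 8.75 times. These 5 genes had the highest ratios of the list in either library.

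Of 15 genes for interferon receptors and signalling, 3 were higher in members, 1 lower and 11 neither, beside 3.65% and 6.2% of all genes. Usp18, which removes ISG15 from proteins and damps receptor signalling, was at 304 and 287 CPM against 57.1 and 39.3 CPM, 5.31 and 7.30 times higher. Irf7, the transcription factor that amplifies interferon production, was at 927 and 684 CPM, 2.94 and 2.63 times the level of the others. Stat2, a signal transducer of the type I receptor, was 2.33 and 2.68 times higher, while Irf9 was at 1.27 and 1.32 times. The receptor subunits Ifnar1 (1.24 and 0.962) and Ifnar2 (1.04 and 1.04) lay near equality. Ifngr1, the ligand-binding chain for interferon-gamma, was lower in members in both libraries, at 224 and 303 CPM against 384 and 514 CPM, ratios of 0.582 and 0.590.

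Sensors of nucleic acids were part of the difference, in which 3.65% of all genes were higher and 6.2% lower. Of 20 genes that passed, 7 were higher and 0 lower, among them the RNA helicases Ddx58 (RIG-I; 3.10 and 3.46 times) and Ifih1 (MDA5; 3.67 and 3.63 times) and Cgas, the cytosolic DNA sensor (1.59 and 2.62 times). Of 6 genes for conjugation of ISG15, a ubiquitin-like modifier, 4 were higher, including Isg15 itself (4.61 and 5.35 times) and the ligase Herc6 (3.45 and 4.28 times). Of the 19 cell death genes 7 were higher and 0 lower. Tnfsf10, which encodes the death ligand TRAIL, was at 30.6 and 41.9 CPM in members, 8.52 and 11.3 times the level of the others.

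The interferon-gamma list, of guanylate-binding proteins, immunity-related GTPases and factors, had 14 of 22 genes higher and 0 lower (3.65% and 6.2% of all genes). Its median log2 ratios were 1.22 and 1.01. Iigp1, a GTPase that attacks pathogen vacuoles, was 6.55 and 2.34 times higher, and Gbp5, a guanylate-binding protein tied to inflammasomes, 4.16 and 2.08 times. In both genes the level in members differed little between the libraries (162 and 195 CPM for Iigp1, 284 and 301 CPM for Gbp5), while the UDSP-Hep over PBS ratio in the other classical monocytes was 3.36 and 2.12. Il15 and Il15ra, the cytokine and the receptor chain that presents it to NK and T cells, were 4.07 and 3.89 times and 3.68 and 3.04 times higher. Cd40, a costimulatory receptor, was 2.51 and 2.05 times higher and was the only 1 of 13 MHC class II pathway genes past the fold.

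Transcripts of the interferons themselves were at or near 0. Of 10 ligand genes, 9, Ifnb1 among them, had 0 UMIs in the members of each library, which allows up to 2.78 and 3.81 CPM (3 counts of 1077583 and 788182 UMIs). Ifng had 2 and 3 UMIs.

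**Figure D2:**
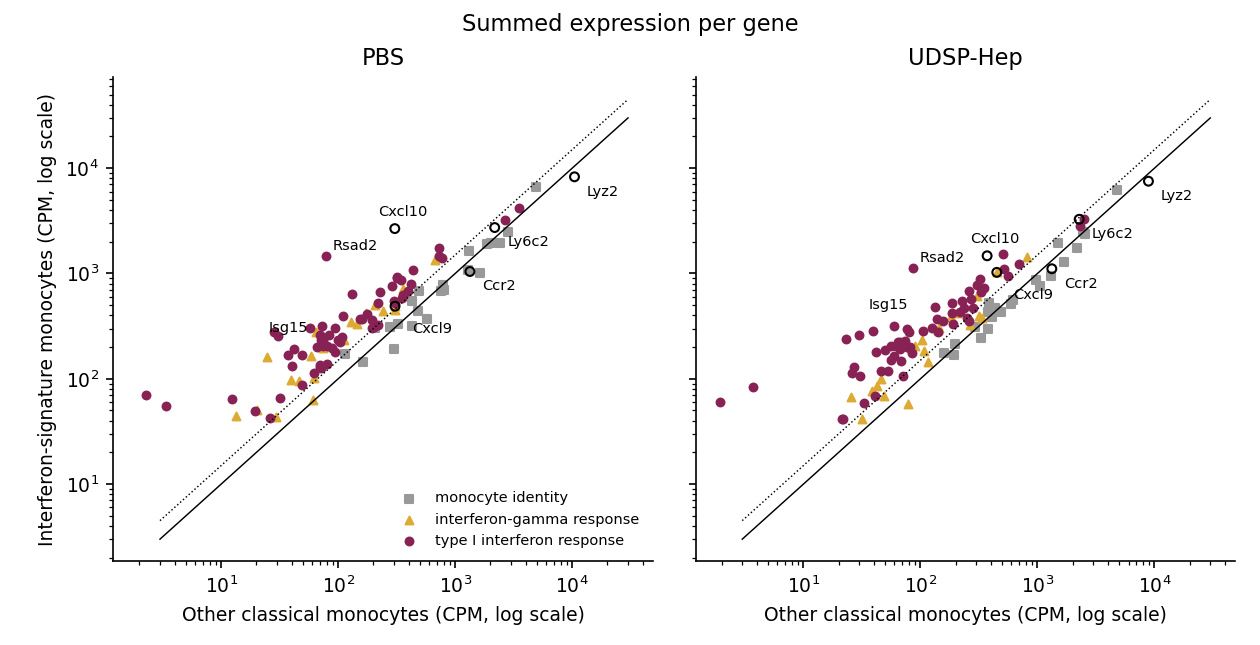
Summed expression (CPM, log scales) of each gene in interferon-signature monocytes against other classical monocytes, in the PBS and the UDSP-Hep library. Circles are type I interferon genes, triangles interferon-gamma genes, squares monocyte identity genes and rings Cxcl10, Cxcl9, Ly6c2, Ccr2 and Lyz2. The solid line is equality and the dotted line 1.5-fold, and 57 of 61 type I genes passed 1.5-fold in both libraries.

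The named genes on the lower side, ranked by the interval bound nearest equality, were Racgap1, Cbfa2t3, Lpl, Ccl8, Fam102b, Tcp11l2, Gpcpd1, Spp1, Ifngr1 and Ccdc88c. Lpl, lipoprotein lipase, was at 71.5 and 24.1 CPM in members against 159 and 115 CPM, and Racgap1, of cell division, was at 6.50 and 5.08 CPM against 28.6 and 30.5 CPM. Spp1, osteopontin, was at 209 and 34.3 CPM against 365 and 151 CPM. Of 12 nonclassical monocyte genes outside the rule, 0 were higher and 2 lower, beside 3.65% and 6.2% of all genes. The 2 were the leukosialin gene Spn (0.581 and 0.649 of the level of the others) and the scavenger receptor gene Cd36 (0.574 and 0.655). When all cells were thinned to 3000 UMIs before gating, Lpl and Spp1 were higher in PBS members than in the others, at ratios of 1.14 and 1.70.

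The ISRE core was found upstream of 20 of 51 type I interferon genes with a RefSeq promoter (39.2%) and 11 of 19 interferon-gamma genes (57.9%), against 3.79% of the 6114 tested genes with a promoter. It was upstream of 51 of 225 genes higher in members (22.7%), 11 of 374 genes lower (2.94%) and 0 of 18 monocyte identity genes. The GAS letters, TTC and GAA with 3 bases between them, occurred in 8.13% of all symbols, 4 of 51 type I genes and 10 of 19 interferon-gamma genes. Of 29 ISRE matches in type I promoters, 1 overlapped a GAS match. A match is only letters in the window, and the type I list overlaps the genes higher in members.

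Within the members, other interferon genes followed the Ifit count. When classical monocytes were binned by Ifit UMIs (5 to 9, 10 to 19, and 20 or more; 52, 36 and 24 PBS cells, and 32, 31 and 11 UDSP-Hep cells), Rsad2 was at 587, 1094 and 3298 CPM in the PBS bins and at 484, 1409 and 2037 CPM in the UDSP-Hep bins. The summed type I list lacked Ifit1, Ifit2 and Ifit3 but held Ifit3b and Ifit1bl1. It went from 27497 to 33178 and 38790 CPM in the PBS bins and from 23250 to 29964 and 34498 CPM in the UDSP-Hep bins. The last UDSP-Hep bin held under 20 cells. After each member was thinned to 3500 UMIs, which left out none, the Spearman correlation across cells of a library between Ifit UMIs and list UMIs was 0.54 (112 cells) and 0.58 (74 cells). At the same depth a median of 35 and 34 of the 62 listed genes had a UMI in a member, against 21 and 19 in the other classical monocytes.

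The chemokines Cxcl10 and Cxcl9, which both recruit Cxcr3-bearing T and NK cells, did not follow the Ifit count alike. Cxcl10 was at 972, 2164 and 5928 CPM in the 3 PBS bins and at 727, 1403 and 3407 CPM in the UDSP-Hep bins. Cxcl9 was at 401, 408 and 725 CPM, and at 1220, 859 and 950 CPM. Its rank correlation with Ifit UMIs across thinned members was -0.01 and 0.14, against 0.38 and 0.39 for Cxcl10. Cxcl9 UMIs were in few cells: 25% of thinned PBS members and 37.8% of thinned UDSP-Hep members held one, and 25.9% and 44.6% without thinning.

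**Figure D3:**
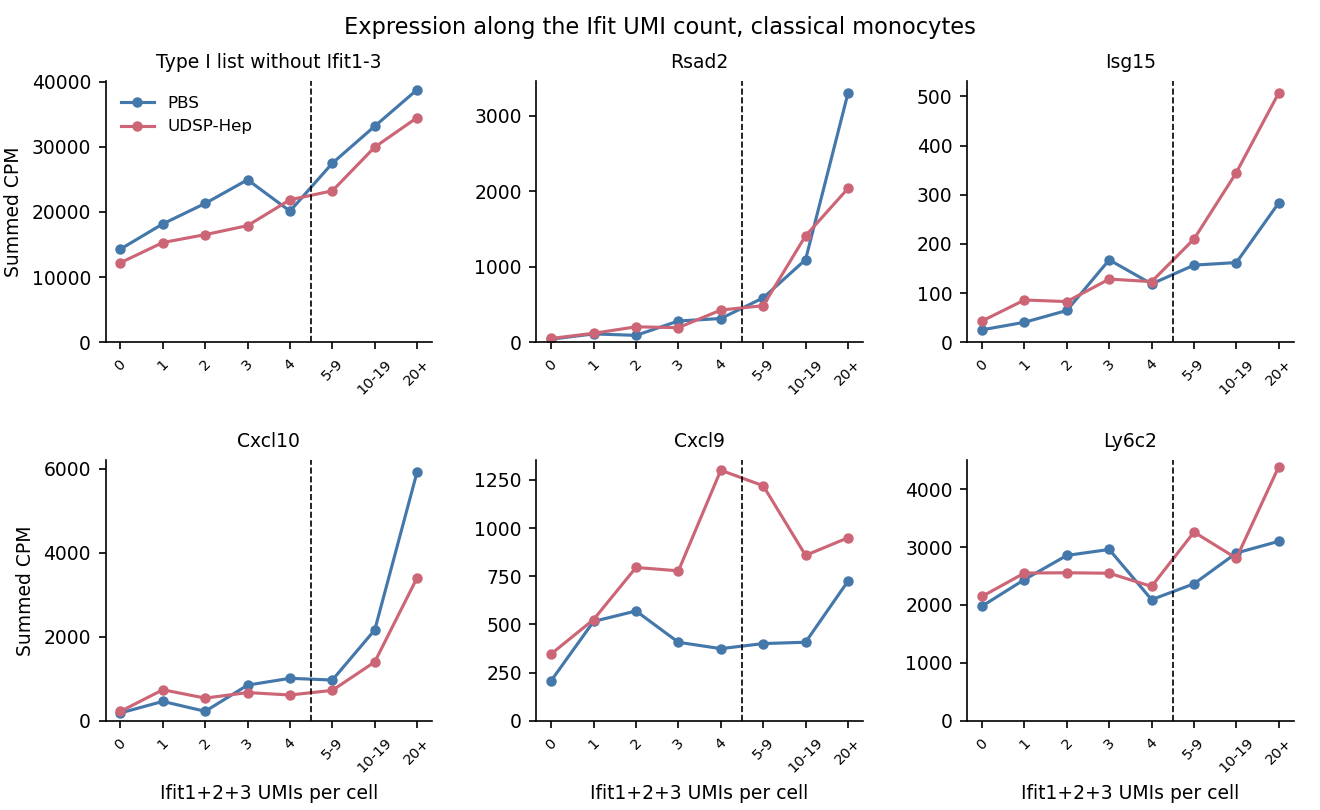
Summed CPM of the type I interferon list without Ifit1, Ifit2 and Ifit3, and of 5 genes, in classical monocytes binned by Ifit UMIs per cell, for PBS (blue) and UDSP-Hep (red). Members lie to the right of the dashed line, where Rsad2 reached 3298 and 2037 CPM in the last bin and Cxcl9 725 and 950 CPM.

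The main comparison asked how members from UDSP-Hep tumours differed from members of PBS tumours. Members of the UDSP-Hep library had more H2-Aa, H2-Ab1, Il1b and Egr1, less Ccl2 and Cxcl10, and a type I interferon list close to its PBS level. H2-Aa, H2-Ab1 and Il1b were past 1.5-fold in the other classical monocytes too. Ccl2 and Egr1 lay on the same side there but short of that fold, with Egr1 at 1.39 (1.28 to 1.496). For Cxcl10 and Cd274 those cells had a different ratio. Among 4604 genes with at least 50 UMIs summed over both libraries, 478 (10.4%) had a UDSP-Hep over PBS ratio of at least 1.5 and 263 (5.71%) a ratio of at most 1/1.5, and the median log2 ratio was 0.05. With median-of-ratios scaling, which lowered every log2 ratio by 0.12, the counts were 314 and 434, so that the share of higher genes among them went from 64.5% to 42.0%. Thinning all cells to 3000 UMIs before gating left 49 and 24 members, and some of the ratios that it took back under 1.5-fold are given beside the genes. Those members were gated anew, from 792 and 650 classical monocytes in place of 693 and 602. Their ratios have no interval here and rest on few UMIs for less abundant genes. A thinned ratio nearer to or across equality therefore cannot tell a lost difference from counting noise. With 1 library per group these counts hold sampling noise and differences between mice that cannot be told apart from the treatment.

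Of 61 type I interferon genes, 4 were higher in the UDSP-Hep library, 3 lower and 54 neither, beside 10.4% and 5.71% of all genes. The median log2 ratio was -0.18 (-0.24 in the other classical monocytes). Isg15 was at 192 CPM in PBS and 317 CPM in UDSP-Hep members, a ratio of 1.65 (1.37 to 1.995). Ifi44 was at 65.0 and 113 CPM and Ifit1bl1 at 55.7 and 83.7 CPM, and after thinning to 3000 UMIs Ifi44 had a ratio of 0.961. The 3 lower genes were Ifi203 and Mndal, of the interferon-inducible DNA-binding family, and Slfn4, of the Schlafen family. Slfn4 was at 316 and 189 CPM, a ratio of 0.599 (0.491 to 0.729), and after thinning it came to 0.903 and Ifi203 to 0.698. Rsad2 and Irf7 lay between, at ratios of 0.772 (0.710 to 0.838) and 0.738 (0.663 to 0.820). Of the genes of the rule, Ifit1 was at 679 and 710 CPM, Ifit2 at 545 and 452 CPM and Ifit3 at 378 and 218 CPM.

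Of the 22 interferon-gamma genes, 2 were higher, 1 lower and 19 neither, beside 10.4% and 5.71% of all genes. The median log2 ratio was -0.05, against 0.32 over the same list in the other classical monocytes. Cxcl9 was at 489 and 1025 CPM, a ratio of 2.10 (1.88 to 2.34), and 1 cell gave 19.7% and 20.5% of its UMIs. Il18bp, a secreted inhibitor of interleukin-18, was at 43.6 and 77.4 CPM. After thinning Cxcl9 came to 1.07 and Il18bp to 1.13. Socs1, the feedback inhibitor of interferon receptors, was at 331 and 146 CPM, a ratio of 0.440 (0.354 to 0.545), against 0.802 in the other classical monocytes. Cd274, which encodes the checkpoint ligand PD-L1, was at 349 and 324 CPM in members, a ratio of 0.927 (0.788 to 1.09). In the others it was at 128 and 267 CPM, a ratio of 2.09. The ratio in members was not stable, at 1.29 with at least 3 Ifit UMIs and 0.620 after thinning. The difference between the 2 populations was not tested.

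Some antigen presentation genes were higher. Of 12 MHC class II pathway genes 5 were higher, 0 lower and 7 neither, beside 10.4% of all genes on the higher side, with a median log2 ratio of 0.35 (0.43 in the other classical monocytes). H2-Aa was at 1373 and 3202 CPM, a ratio of 2.33 (2.19 to 2.49), H2-Ab1 was at 1328 and 2842 CPM, a ratio of 2.14, and H2-Eb1 was at 880 and 2005 CPM, a ratio of 2.28 that came to 1.17 after thinning. Cd74, the invariant chain that escorts class II molecules, was at 4251 and 7086 CPM, a ratio of 1.67 (1.60 to 1.73), or 1.40 after thinning. The same 4 genes had ratios of 1.77 to 2.21 in the other classical monocytes. Of 22 MHC class I pathway genes 16 were neither higher nor lower and 6 were higher, H2-Q4, H2-Q6, H2-Q7, H2-T22, Tap2 and Pdia3, of which the H2 genes have close relatives that can share reads.

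Of 17 inflammatory cytokine and mediator genes 5 were higher, 2 lower and 10 neither, beside 10.4% and 5.71% of all genes. Tnf, which encodes tumour necrosis factor, was on the lower side, at 46.4 and 25.4 CPM, a ratio of 0.547. Il1b, which encodes interleukin-1 beta, was at 985 and 2787 CPM, a ratio of 2.83 (2.63 to 3.05), and Ptgs2, the cyclooxygenase of prostaglandin synthesis, at 304 and 726 CPM, a ratio of 2.38 (2.08 to 2.74). In the other classical monocytes the ratios were 2.36 and 2.21. After thinning to 3000 UMIs Ptgs2 came to 0.904. Of 19 immediate early genes 9 were higher, 0 lower and 10 neither, with a median log2 ratio of 0.54 (0.45 in the others). Egr1, a zinc finger factor induced within minutes of stimulation, was at 138 and 450 CPM. Its ratio was 3.26 (2.68 to 3.97), against 1.39 in the others. Fos was at 1421 and 2550 CPM, and Nr4a2 at 89.1 and 259 CPM, a ratio of 2.91 that came to 1.53 after thinning. These genes are also known to respond to tissue dissociation, whose part in the result was not tested.

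Some of these transcripts were also found, at a higher level in the UDSP-Hep library, in cells gated on Cd3e alone. T cells, which carry Cd3e, are not a usual source of them. In cells with at least 2 Cd3e UMIs, Il1b was at 278 and 973 CPM and H2-Ab1 at 900 and 1478 CPM. Lyz2, a gene of the rule, was in 48.2% and 58.0% of these cells, at 769 and 1534 CPM. After thinning to 3500 UMIs, 55.4% of PBS and 82.4% of UDSP-Hep members held an Il1b UMI, against 17.1% and 38.9% of those Cd3e cells (67.9% and 94.6% against 28.6% and 51.8% without thinning). For H2-Ab1 the thinned shares were 47.3% and 67.6% of members and 32.9% and 45.4% of Cd3e cells (unthinned 61.6% and 83.8% against 51.1% and 57.6%). The Cd3e cells had median depths of 8821.5 and 6956 UMIs before thinning, and 101 and 168 of them were left out as shallower. The part of free RNA, or of cells captured together, in the ratios was not tested.

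Chemokine genes lay on both sides, with 4 of 12 higher and 4 lower, beside 10.4% and 5.71% of all genes. Cxcl10 was at 2668 and 1472 CPM, a ratio of 0.552 (0.515 to 0.591), whereas in the other classical monocytes it was at 305 and 371 CPM, a ratio of 1.22. Without the member that held most Cxcl10 in each library the ratio in members was 0.514. The monocyte attractant Ccl2 was at 1692 and 958 CPM, Ccl7 at 626 and 329 CPM, and Ccl12 at 255 and 93.9 CPM, ratios of 0.566, 0.525 and 0.368, against 0.676, 0.528 and 0.401 in the others. After thinning Ccl2 was at 0.508, but Ccl7 came to 0.698 and Ccl12 to 0.942. Cxcl2, which attracts neutrophils, was at 368 and 916 CPM, a ratio of 2.49 (2.20 to 2.83). It came to 1.24 without the conditions on Ccl24, heat shock and hypoxia genes, and to 2.85 with at least 10 Ifit UMIs. Ccl5, an attractant of T cells, was at 316 and 523 CPM, a ratio of 1.65 (1.43 to 1.91), and Cxcl16, ligand of Cxcr6, was at 101 and 193 CPM, a ratio of 1.91 that came to 1.13 after thinning.

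**Figure D4:**
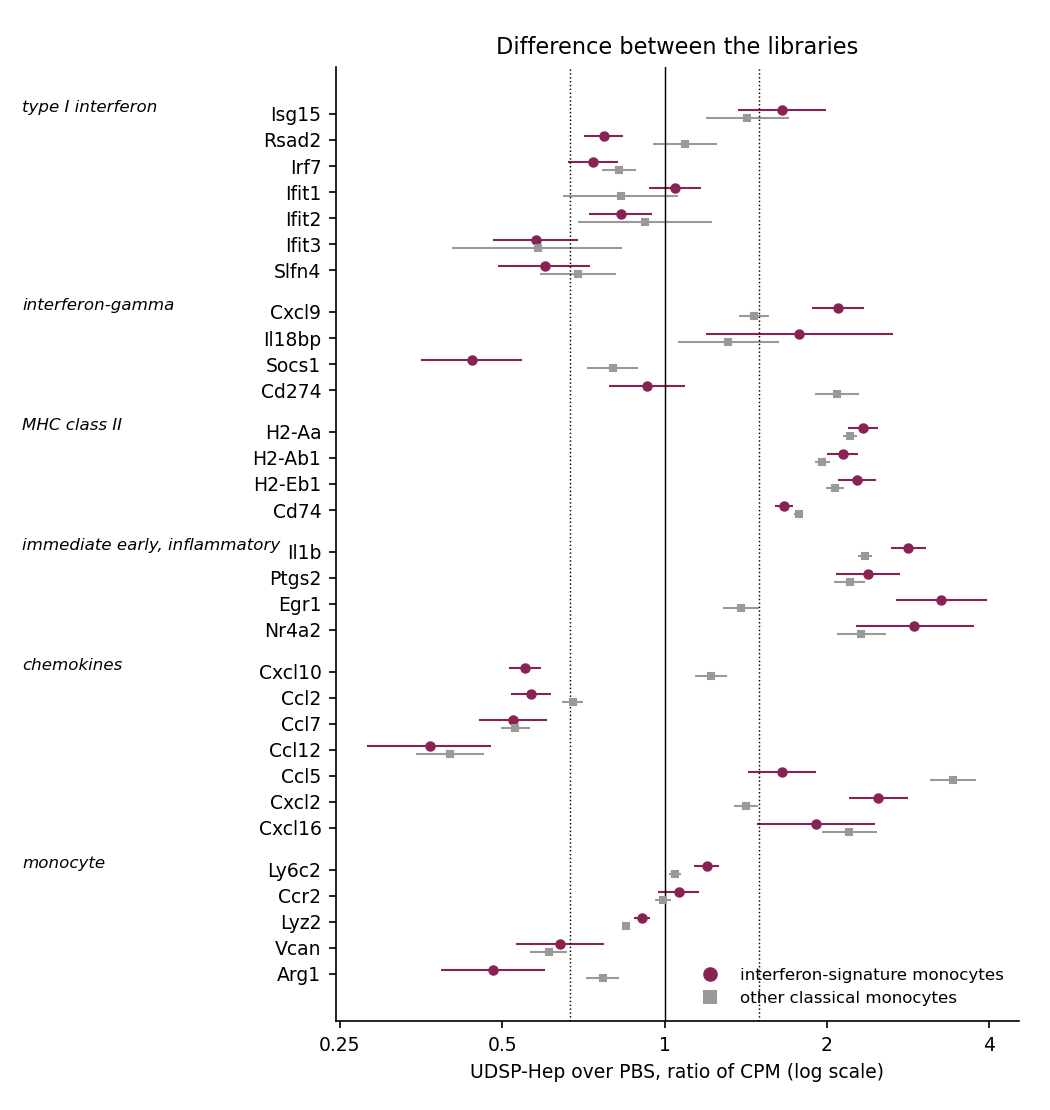
Ratio of CPM, UDSP-Hep over PBS (log scale), for named genes in interferon-signature monocytes (circles) and in other classical monocytes (squares). Bars are 95% exact intervals for counting error and dotted lines are 1.5-fold in either direction. Cxcl10 lay at 0.552 in members and 1.22 in the others, and Cd274 at 0.927 and 2.09.

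Ly6c2 was at a ratio of 1.20 and Ccr2 of 1.06, both genes of the rule. Of 22 identity genes 2 were higher, 3 lower and 17 neither, beside 10.4% and 5.71% of all genes. The 3 were Vcan, a matrix proteoglycan, at 333 and 213 CPM, F13a1, a clotting factor subunit, at 368 and 245 CPM, and S100a4 at 1927 and 1279 CPM. After thinning Vcan came to 0.802 and F13a1 to 1.09. Klf4, a transcription factor of monocyte differentiation, was higher, at 143 and 313 CPM. Of 19 macrophage maturation genes 2 were higher and 5 lower, with a median log2 ratio of -0.40 against 0.08 in the other classical monocytes. A single PBS cell held 95.2% of the UMIs of Pf4 and a single PBS cell 51.1% of those of Hmox1, the haem oxygenase gene, and without the top cell of each library these 2 of the 5 lower genes came to 1.59 and 0.691. After thinning Hmox1 came to 0.885. A single UDSP-Hep cell held 72.8% of the UMIs of Gpnmb, 1 of the 2 higher genes, whose ratio came to 1.46 after thinning. Spp1 was at 209 and 34.3 CPM, a ratio of 0.164 (0.106 to 0.245), and it came to 0.411 with at least 3 Ifit UMIs. The mannose receptor gene Mrc1 was at 134 and 52.0 CPM, and Axl, a receptor for dying cells, was higher, at 116 and 222 CPM.

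The genes named for their ratio were, on the higher side, Mmp12, Tpm3-rs7, Dgkz, Gadd45a, Gatm, Egr1, Smpdl3b, Il1b, Gpnmb and Nr4a2, and, on the lower side, Saa3, Retnlg, Pf4, S100a9, Spp1, Dmkn, Mmp8, S100a8, Fabp5 and Ccl12. For 7 of these 20, 1 cell held over 50% of the gene's UMIs in a library. The acute-phase gene Saa3 was at 2004 and 86.3 CPM, but 99.2% of its PBS UMIs came from the member with 49578 UMIs, and without the top cell of each library the ratio was 2.65 in place of 0.0431. A single PBS member with 16276 UMIs held 100% of the UMIs of the neutrophil genes S100a8 and Retnlg. Another held 95.2% of Pf4, and the deepest UDSP-Hep member 90.1% of Mmp12 and 72.8% of Gpnmb. Some of those genes appear again in the closing sections.

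The remaining named genes were spread over more cells. Gatm, an enzyme of creatine synthesis, was at 90.9 and 313 CPM, a ratio of 3.45 (2.72 to 4.40), and Gadd45a, a stress-induced growth arrest gene, at 10.2 and 59.6 CPM. Fabp5, a fatty acid carrier, was at 615 and 206 CPM, a ratio of 0.334 (0.280 to 0.397) that came to 0.823 after thinning, and Dmkn was at 127 and 19.0 CPM. In the other classical monocytes Gatm was at a ratio of 2.87 and Fabp5 at 0.685. Tpm3-rs7 resembles Tpm3 closely, so that its ratio of 9.82 is uncertain.

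Arg1, the arginase of alternative activation, was at 295 and 142 CPM, a ratio of 0.482 (0.385 to 0.599). It changed side with the threshold, to 1.39 in members with at least 10 Ifit UMIs. After thinning it was at 1.15.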

How the data were processed

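The authors deposited unnormalized UMI counts of 32285 genes for each library. Cell Ranger 7.0.0, Seurat and the build mm10 are named in the submitters' processing notes. A barcode was kept with 200 or more genes, 500 or more UMIs and a mitochondrial share under 10%, and 245 PBS and 197 UDSP-Hep barcodes failed this. No doublets were taken out. Scrublet in scanpy 1.11.5 called 0 cells by its own threshold, and an alternative left out the highest scores. Members summed to 1077583 and 788182 UMIs. With 1 library per group no test was made. CPM ratios have exact conditional binomial intervals, shares of cells Clopper-Pearson intervals and ratios of shares Katz log intervals, computed with scipy 1.17.1 and tested on simulated data. Gene names were taken from the deposited feature lists. Listed genes absent from those, Mx1 and Mx2 among them, are not analysed here.

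Genes were named as the 10 highest and 10 lowest of UDSP-Hep over PBS with at least 50 summed UMIs and 50 CPM in the higher library, and as the 15 highest and 10 lowest against other classical monocytes. Both rankings used the interval bound nearest equality and left out the genes of the rule, Xist, Tsix, Y-linked genes, unnamed models, and genes of mitochondria, ribosomal proteins, haemoglobins, antibodies and T cell receptors. List members were named as examples. The members, lists and comparisons were chosen with earlier results of these data known. Alternatives were other Ifit thresholds, thinning, doublet scores, mitochondrial limit, scaling, cell weighting, UMI minimum and comparison cells. Some genes are counted within their lists but not reported here by name.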

Additional observations from a re-analysis of the deposited data

Results flagged for a closer look

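Several genes lay past 1.5-fold in opposite directions in groups set side by side, with both counting intervals beyond equality. None of these differences was tested, since each group was 1 library. Members over other classical monocytes gave a ratio for Dmkn of 1.54 in the PBS and 0.490 in the UDSP-Hep library, for Mmp12 of 0.449 and 3.92, for Pf4 of 2.31 and 0.191, for S100a8 of 153 and 0.359, and for S100a9 of 753 and 0.495. UDSP-Hep over PBS was 0.299 in members and 127 in the other classical monocytes for S100a8, 0.172 and 262 for S100a9, and 0.0431 and 2.46 for Saa3.

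One member of the PBS library held 467 of 467 S100a8 UMIs and 1227 of 1229 S100a9 UMIs, and another held 2142 of 2159 Saa3 UMIs. In the UDSP-Hep library 1 member held 89 of 102 S100a8 UMIs, and the deepest member 100 of 111 Mmp12 UMIs. For Dmkn the top cell held 14.6% and 20% of the UMIs. Among the other UDSP-Hep classical monocytes 1 cell gave 48.9% of the summed neutrophil marker UMIs, which include S100a8 and S100a9. With cells thinned to 3500 UMIs, S100a8 was in 0.718% of PBS and 6.40% of UDSP-Hep other classical monocytes. It was in 0.495% and 6.36% of Cd3e cells and in 0.945% and 11.2% of macrophages. Neutrophil-gated cells numbered 24 and 353. The part of neutrophil RNA in these ratios was not tested.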

How the results depend on the processing

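No paired analysis was possible because each group had 1 library. Of 1327 values of single genes under the alternatives, 1061 stayed within counting error, 249 moved beyond it and 17, all given here, changed side after lying past 1.5-fold. The thresholds, thinning, doublet removal and mitochondrial limit left the ratio of members' shares of kept cells between 0.521 and 0.651, and it came to 0.416 without the Ccl24, heat shock and hypoxia conditions. The type I list median stayed between -0.30 and -0.04. Counts of genes higher and lower in UDSP-Hep were 55 and 86 after thinning to 3000 UMIs, 314 and 434 with median-of-ratios scaling, 1063 and 545 with a minimum of 20 UMIs, and 77 and 66 with a minimum of 200. Genes lower than in other classical monocytes numbered 292 with at least 3 Ifit UMIs, 250 with median-of-ratios scaling, 734 and 96 with minimums of 20 and 200 UMIs, and 1028 without the top member cell of each gene, an alternative chosen after seeing the data that takes a gene's highest cell from the members only.

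Ratios of UDSP-Hep over PBS that changed side were Arg1 at 1.39, 1.15 and 1.15 and Pf4 at 3.43, 3.58 and 2.04 (at least 10 Ifit UMIs, 6 per 10000 UMIs, thinned), and Mmp12 at 0.510, Ifi44 at 0.961, Ptgs2 at 0.904 and F13a1 at 1.09 (thinned). Mmp12 was at 0.874 without the 3 conditions, and Saa3 at 2.65, Pf4 at 1.59 and S100a9 at 22.1 without the top cell. Against other classical monocytes of the PBS library, Ccl8 came to 1.16 with at least 3 Ifit UMIs, and Lpl to 1.14 and Spp1 to 1.70 when thinned. Apart from the top cell values, the cause was not tested. Members numbered 60 and 42 with at least 10 Ifit UMIs, and 49 and 24 after thinning, where ratios of less abundant genes rest on few UMIs.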
